A study of Homo sapiens with 10 samples.

Results

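The mitochondrial ribosomal protein genes were taken as every gene listed under the symbol MRPL or MRPS followed by a number and an optional letter. They numbered 77 of the 26485 genes listed, 48 for the large subunit (MRPL) and 29 for the small subunit (MRPS). Their messenger RNA was compared between 2 populations sorted by flow cytometry from SW480, an established line from a human colorectal adenocarcinoma, on the surface receptor ROBO1. ROBO1pos cells (named SW480-CBC by the submitters) and ROBO1neg cells (SW480-RSC) were each sequenced as 5 bulk libraries of polyadenylated RNA. Both populations were of wild-type genotype, were grown in DMEM with fetal bovine serum and received no other stated treatment. The whole comparison therefore rests on 1 cell line, and nothing in the labels tells if replicates were cultured or sorted separately. The p-values measure spread between libraries only, and that spread may be technical.

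Mitochondria keep their own ribosome, which translates the few messenger RNAs made from mitochondrial DNA. These encode core subunits of the respiratory chain complexes and of ATP synthase. All proteins of this ribosome are encoded in the nucleus, made in the cytosol and imported, so their genes are transcribed and regulated apart from the ribosomal RNAs they join. Many of these proteins descend from bacterial ribosomal proteins, and others were added in the lineage of mitochondria. The large subunit joins amino acids and carries the exit tunnel for the new peptide, while the small subunit holds the messenger RNA and decodes it.

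Reads on genes numbered 23228686 to 29539100 per library, and members took 0.489% ± 0.019 of them in ROBO1pos and 0.430% ± 0.016 in ROBO1neg (mean ± SD, n = 5 libraries per group here and throughout). ROBO1 itself had a normalised read count (CPM) of 429.5 ± 26.7 in ROBO1pos and 7.25 ± 1.47 in ROBO1neg, in the direction of the sort. CPM are reads scaled to a common library size, here after TMM scaling, which corrects library sizes for differences in composition. All 5 epithelial markers (EPCAM, CDH1, KRT8, KRT18 and KRT19) were above 1 CPM. Their summed level was 5257 to 6525 CPM in ROBO1pos and 7909 to 10449 CPM in ROBO1neg, most of it from KRT8 and KRT18. EPCAM went the other way, at 679.9 ± 22.9 CPM in ROBO1pos and 303 ± 12.8 CPM in ROBO1neg. Markers of immune cells summed to 2.36 to 3.88 CPM over all libraries, those of endothelial cells to 0.504 to 4.25 CPM and those of fibroblasts to 10.1 to 22.5 CPM. None of these 14 markers was at 0 in all libraries. Reads on genes were 58.7% ± 0.953 of all listed reads in ROBO1pos and 63.4% ± 0.288 in ROBO1neg, and reads aligned to several places were 24.6% ± 0.875 and 21.2% ± 0.398. The part of these differences in the results for the members was not tested.

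More members were higher in ROBO1pos than in ROBO1neg, in both subunits, and most differences were small. Of the 75 members with enough counts to be tested, 46 had a higher and 15 a lower level in ROBO1pos, and 14 did not pass the threshold, an edgeR adjusted p under 0.05 over all 14932 genes tested. Among all genes tested, 41.6% were higher in ROBO1pos and 40.4% higher in ROBO1neg, so calls were common in this comparison. In the large subunit 30 of 48 members (62.5%) were called toward ROBO1pos and 10 (20.8%) toward ROBO1neg. In the small subunit 16 of 27 (59.3%) were called toward ROBO1pos and 5 (18.5%) toward ROBO1neg. The median log2 fold change (the log2 ratio of ROBO1pos over ROBO1neg) was 0.25 for the large and 0.19 for the small subunit, beside 0.019 over all genes tested. Of the 9677 tested genes within the members' range of mean CPM, 4016 were higher in ROBO1pos and 4050 higher in ROBO1neg. The 2 sets of libraries were fully separate, with no overlap, for 52 of the 75 members (69.3%), a share near the 71.9% of all genes tested. Because the RNA came from pooled cells, fewer cells expressing a gene and less of its RNA per cell cannot be told apart.

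**Figure D1:**
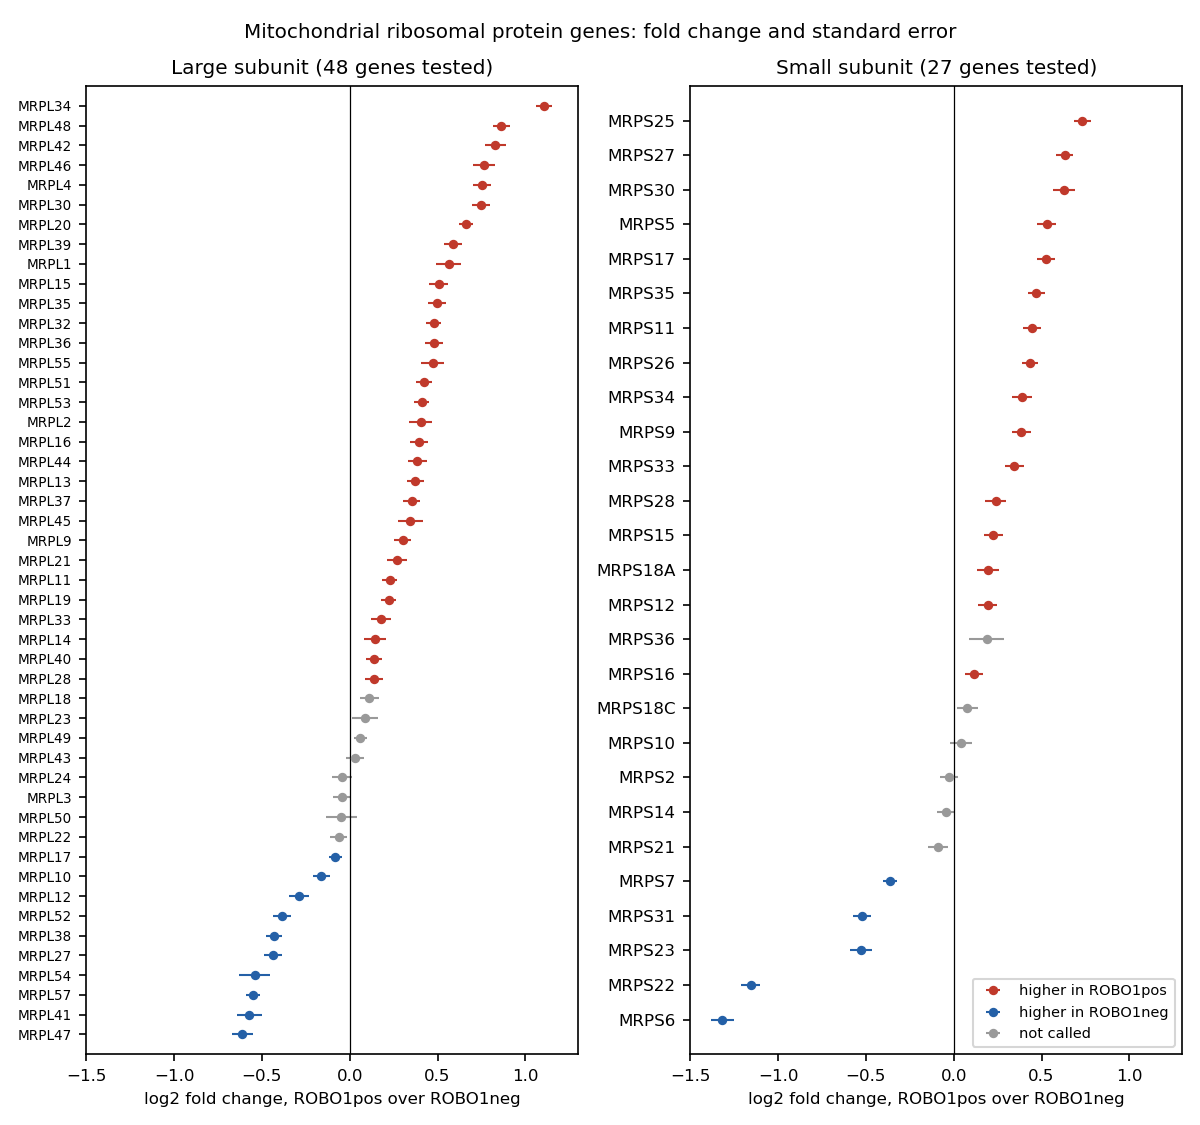
Log2 fold change of ROBO1pos over ROBO1neg (horizontal axis) for the 48 large-subunit and 27 small-subunit members tested, ordered by value, with the standard error as a bar. Values run from -0.61 to 1.11 in the large and from -1.32 to 0.73 in the small subunit, where MRPS6 and MRPS22 stand apart at the lower end.

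The largest difference in the large subunit was that of MRPL34, a small protein with a bacterial counterpart. MRPL34 (chr19:17292573-17306843, plus strand, GRCh38) stood at 77.5, 78.2, 72.8, 73.7 and 79.9 CPM in the 5 ROBO1pos libraries and at 32.9, 38.5, 34.9, 36.5 and 34.6 CPM in the 5 ROBO1neg libraries. Every ROBO1pos library was above every ROBO1neg library, and MRPL34 was the only member more than 2-fold higher in ROBO1pos. Its means were 76.4 ± 3.03 and 35.5 ± 2.11 CPM, which gave a log2 ratio of 1.11 (SE 0.048, edgeR adjusted p = 4.70e-11). ABHD8, a gene on the other strand that overlaps MRPL34 by 10853 bases, went the other way, with 4.51 ± 0.992 CPM in ROBO1pos and 13.97 ± 1.34 CPM in ROBO1neg. The sources used here do not give the strand setting of the authors' counting, and reads of the pair may not be fully separated.

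MRPL48 and MRPL46 both lie in the central protuberance, the top of the large subunit that touches the small one, and neither has a bacterial counterpart. MRPL48 (chr11:73787874-73865133, plus strand) measured 52.0, 52.0, 50.4, 53.3 and 57.6 CPM in ROBO1pos and 27.8, 30.7, 27.9, 29.96 and 29.4 CPM in ROBO1neg. Its log2 fold change was 0.86 (SE 0.049, edgeR adjusted p = 8.11e-10). MRPL46 (chr15:88459478-88467388, minus strand) measured 30.4, 35.1, 30.2, 31.2 and 33.4 CPM in ROBO1pos and 17.1, 20.1, 17.8, 19.4 and 19.8 CPM in ROBO1neg. The groups did not overlap for either gene, and MRPL46 differed by 0.77 on the log2 scale (SE 0.064, edgeR adjusted p = 6.07e-08). MRPL42, another protein of the mitochondrial lineage, measured 78.3, 90.1, 76.8, 83.9 and 93.5 CPM in ROBO1pos against 45.6, 46.0, 49.7, 51.0 and 45.3 CPM in ROBO1neg. Its 2 groups were well apart, with a log2 fold change of 0.83 (SE 0.060, edgeR adjusted p = 1.24e-08). RefSeq lists 6 pseudogenes named after MRPL42, so reads shared with these copies make its level less certain. Of the pseudogenes, MRPL42P5 was counted separately and stood at 0.031 ± 0.018 CPM in ROBO1pos.

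In all, 10 large-subunit members were higher in ROBO1neg, none of them by as much as 2-fold. MRPL47, a protein at the exit of the peptide tunnel, had the lowest value of the subunit. It measured 41.8, 49.6, 43.2, 42.1 and 47.0 CPM in ROBO1pos and 63.4, 74.4, 66.1, 70.8 and 67.0 CPM in ROBO1neg, which gave a log2 ratio of -0.61 (SE 0.058, edgeR adjusted p = 2.37e-07). The lowest ROBO1neg library was above the highest ROBO1pos library. MRPL41 measured 21.3, 22.1, 24.2, 19.8 and 25.1 CPM in ROBO1pos and 31.1, 35.0, 31.2, 35.8 and 34.0 CPM in ROBO1neg (log2 ratio -0.57, SE 0.071). For MRPL57 the values were 57.8, 54.1, 55.6, 55.0 and 55.3 CPM in ROBO1pos and 77.4, 86.5, 81.7, 80.5 and 80.6 CPM in ROBO1neg (log2 ratio -0.55, SE 0.039). MRPL41, MRPL57 and MRPL54 have no bacterial counterpart, and in each of them the groups were separate. MRPL54, the least abundant of the 3, measured 12.6, 9.60, 11.8, 11.0 and 13.4 CPM in ROBO1pos and 16.1, 19.2, 17.1, 16.7 and 16.0 CPM in ROBO1neg (log2 ratio -0.54, SE 0.090, edgeR adjusted p = 6.64e-05). RefSeq holds 8 pseudogenes named after MRPL57, and reads shared with these copies make its level less certain.

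MRPL12 forms the flexible stalk that recruits translation factors. It measured 74.4, 81.9, 76.9, 79.2 and 88.0 CPM in ROBO1pos and 87.5, 99.9, 99.0, 98.0 and 105 CPM in ROBO1neg. The highest ROBO1pos library lay just above the lowest ROBO1neg library, and the log2 fold change was -0.29 (SE 0.055, edgeR adjusted p = 2.38e-04). MRPL44, which lies near the tunnel exit and has been linked to inherited heart muscle disease, measured 38.0, 42.4, 37.4, 39.2 and 36.9 CPM in ROBO1pos and 27.7, 31.4, 29.3, 30.3 and 29.7 CPM in ROBO1neg. Its groups did not overlap (log2 fold change 0.39, SE 0.053, edgeR adjusted p = 1.01e-05). Among the members, MRPL51 and MRPL3 had the highest mean CPM of the large subunit. MRPL51 measured 229.6, 242, 224, 221 and 242 CPM in ROBO1pos and 171, 183, 176, 176 and 159 CPM in ROBO1neg (log2 ratio 0.42, SE 0.046, edgeR adjusted p = 9.27e-07). MRPL3, a core protein near the site of peptide bond formation, measured 163, 186, 166, 172 and 186 CPM in ROBO1pos and 169, 185, 185, 185 and 177 CPM in ROBO1neg. Its groups overlapped throughout, and its log2 fold change of -0.045 (SE 0.048) did not pass the test (edgeR adjusted p = 0.395).

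Levels between genes were compared per kilobase of merged exons, since longer messages yield more reads. On this scale MRPL51 led in ROBO1pos with 149 ± 6.39 CPM per kb and MRPL33 came next with 147 ± 6.63. These neighbours in the order differed by less than their spread. In ROBO1neg the order began with MRPS6 at 157 ± 10.6 CPM per kb, MRPL33 at 130.3 ± 11.3 and MRPL51 at 111 ± 5.87. MRPS6 ranked 13 of the members in ROBO1pos, at 62.8 ± 5.64 CPM per kb. MRPS22 ranked 41 in ROBO1pos, at 31.6 ± 2.51 CPM per kb, and 6 in ROBO1neg, at 70.6 ± 2.52. MRPL12 ranked 5 in both groups.

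The small subunit held the 2 members with the largest differences of the family, both higher in ROBO1neg. MRPS6, a protein with a bacterial counterpart on the platform of the subunit, measured 55.8, 67.7, 63.2, 57.0 and 67.3 CPM in ROBO1pos and 141, 165, 165, 155 and 148 CPM in ROBO1neg. The lowest ROBO1neg library was about double the highest ROBO1pos library, and the means of 62.2 ± 5.58 and 155 ± 10.5 CPM were 2.49-fold apart. The log2 fold change was -1.32 (SE 0.065, edgeR adjusted p = 1.85e-10). MRPS22, a protein of the mitochondrial lineage mutations of which cause inherited mitochondrial disease, measured 48.0, 57.3, 51.6, 53.5 and 58.6 CPM in ROBO1pos and 113, 123, 120.2, 120.4 and 124 CPM in ROBO1neg. Its groups were as clearly apart, with means of 53.8 ± 4.28 and 120.0 ± 4.29 CPM and a log2 fold change of -1.16 (SE 0.054, edgeR adjusted p = 9.79e-11). Without each library in turn, the log2 fold change stayed between -1.35 and -1.28 for MRPS6 and between -1.19 and -1.12 for MRPS22.

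On the same strand MRPS6 overlaps SLC5A3, the gene of a myo-inositol transporter that cells use to balance osmotic stress. In RefSeq both genes start at the same base on the plus strand of chromosome 21 (MRPS6 chr21:34073578-34143030, SLC5A3 chr21:34073578-34106260), and they overlap by 32683 bases. SLC5A3, looked up after its values were seen, had 136 ± 16.9 CPM in ROBO1pos against 734 ± 126 CPM in ROBO1neg, or -2.43 on the log2 scale (SE 0.11). In single libraries it ran from 116 to 159 CPM in ROBO1pos and from 627 to 944 CPM in ROBO1neg, so the pair differed in the same direction, SLC5A3 by more. The counts list ambiguous reads apart from genes (0.860% in ROBO1pos and 0.833% in ROBO1neg), but the rule for calling a read ambiguous is not given. The part of reads that fit both genes in the MRPS6 counts was not tested. GENCODE places the starts 346 bases apart, that of MRPS6 at 34073224 and that of SLC5A3 at 34073570. The promoter window is printed because RefSeq gives it for both genes, and the GENCODE start of MRPS6 lies outside it. It comes from RefSeq (GRCh38.p14, chr21:34073328-34073627, plus strand, 250 bases before to 50 after the start), and 82.0% of its 300 bases are G or C, with 51 CpG dinucleotides.
MRPS6 and SLC5A3: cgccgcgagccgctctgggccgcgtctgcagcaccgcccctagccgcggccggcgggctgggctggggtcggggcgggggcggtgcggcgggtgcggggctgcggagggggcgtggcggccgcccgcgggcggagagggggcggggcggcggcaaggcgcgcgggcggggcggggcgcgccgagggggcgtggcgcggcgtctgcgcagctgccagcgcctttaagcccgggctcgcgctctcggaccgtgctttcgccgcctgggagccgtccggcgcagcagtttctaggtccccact

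MRPS23 and MRPS31, 2 more proteins of the mitochondrial lineage, were also higher in ROBO1neg. MRPS23 measured 49.8, 54.3, 47.9, 48.7 and 56.9 CPM in ROBO1pos and 65.6, 81.4, 72.4, 77.7 and 74.4 CPM in ROBO1neg (log2 ratio -0.53, SE 0.063). MRPS31, in the head of the subunit, measured 33.9, 34.8, 30.9, 30.6 and 35.4 CPM in ROBO1pos and 46.2, 48.4, 48.7, 48.0 and 46.8 CPM in ROBO1neg (log2 ratio -0.52, SE 0.050). Neither gene's groups overlapped, and the ROBO1neg libraries of MRPS31 lay within a narrow range. A separately listed copy of the latter, MRPS31P5, moved the same way, at 10.6 ± 0.902 CPM in ROBO1pos and 20.9 ± 1.21 CPM in ROBO1neg. The part of reads shared by the pair in these values was not tested. MRPS7 completed the 5, with 78.7 ± 3.88 against 101 ± 2.10 CPM (log2 fold change -0.36, SE 0.040).

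**Figure D2:**
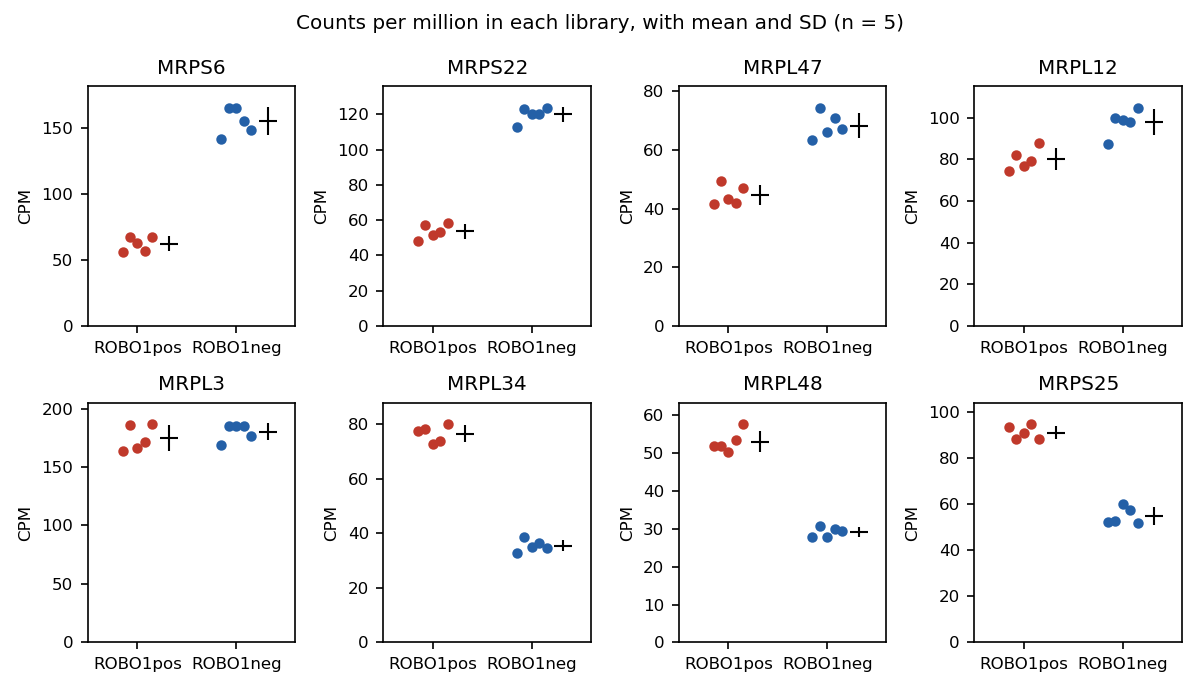
CPM of 8 members in each of the 5 ROBO1pos (red) and 5 ROBO1neg (blue) libraries, with the mean and SD as a black cross. MRPS6 and MRPS22 are higher in every ROBO1neg library, MRPL34, MRPL48 and MRPS25 in every ROBO1pos library, and the 2 groups of MRPL3 overlap.

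On the other side, MRPS25, MRPS27, MRPS30 and MRPS5 were the small-subunit members with the largest differences toward ROBO1pos. MRPS25 (chr3:15042251-15065315, minus strand), of the mitochondrial lineage, measured 93.3, 88.0, 90.5, 94.5 and 88.2 CPM in ROBO1pos and 52.2, 52.6, 60.0, 57.4 and 51.6 CPM in ROBO1neg. The lowest ROBO1pos library was well above the highest ROBO1neg library, and the log2 fold change was 0.73 (SE 0.048, edgeR adjusted p = 4.37e-09). NR2C2, on the other strand, overlaps MRPS25 by 7023 bases. It stood at 73.3 ± 1.87 CPM in ROBO1pos and 81.9 ± 5.20 CPM in ROBO1neg, and reads of this pair too may not be fully separated. MRPS27, a protein with pentatricopeptide repeats, a fold that binds RNA, measured 107, 116, 111, 122 and 123 CPM in ROBO1pos and 72.2, 72.2, 76.5, 74.1 and 78.5 CPM in ROBO1neg (log2 ratio 0.63, SE 0.047). MRPS30 measured 33.9, 40.1, 39.3, 37.2 and 41.3 CPM in ROBO1pos and 25.6, 22.8, 25.6, 26.5 and 23.6 CPM in ROBO1neg (log2 ratio 0.63, SE 0.064). Despite its symbol, MRPS30 sits in the large subunit in structures of the ribosome. MRPS5, a protein with a bacterial counterpart at the entry of the messenger RNA, measured 93.6, 104, 99.96, 102 and 114 CPM in ROBO1pos and 66.3, 69.2, 73.3, 74.3 and 72.5 CPM in ROBO1neg (log2 ratio 0.53, SE 0.053). All 4 genes had separate groups.

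MRPS12, at the decoding centre, measured 65.3, 71.5, 66.1, 65.5 and 71.8 CPM in ROBO1pos and 53.1, 66.5, 59.7, 59.0 and 59.3 CPM in ROBO1neg. ROBO1neg replicate 2 reached into the ROBO1pos range, and the log2 fold change of 0.19 (SE 0.056) passed the test with an edgeR adjusted p of 0.00552. MRPS34, of the mitochondrial lineage, measured 78.9, 87.5, 83.5, 82.2 and 97.5 CPM in ROBO1pos and 60.9, 70.1, 64.8, 64.9 and 67.6 CPM in ROBO1neg, with no overlap (log2 fold change 0.39, SE 0.058). MRPS16 had the highest mean CPM of the small subunit and measured 119, 121, 115, 129 and 135 CPM in ROBO1pos and 115, 117, 107, 113 and 119.6 CPM in ROBO1neg. The groups overlapped, and its log2 fold change of 0.12 (SE 0.050) lay at the threshold with an edgeR adjusted p of 0.0438. The call was lost when ROBO1pos replicate 2, 4 or 5 or ROBO1neg replicate 1, 2, 3 or 4 was left out, with edgeR adjusted p between 0.0515 and 0.143.

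The genome holds 3 copies related to bacterial protein S18, and they take different places in the ribosome. MRPS18A, which sits in the large subunit, measured 36.5, 35.1, 33.5, 35.4 and 42.0 CPM in ROBO1pos and 32.1, 31.0, 30.5, 32.1 and 33.6 CPM in ROBO1neg (log2 ratio 0.19, SE 0.060, edgeR adjusted p = 0.0086). MRPS18C, in the small subunit, measured 26.7, 29.02, 27.6, 25.9 and 26.5 CPM in ROBO1pos and 26.5, 25.5, 23.4, 28.5 and 24.6 CPM in ROBO1neg, which did not pass the test (log2 fold change 0.078, SE 0.060, edgeR adjusted p = 0.241). MRPS18B had 0 counts in all 10 libraries, which allows up to 0.0118 CPM over the pooled libraries (3 counts of their total, counting error only). It lies on chromosome 6 (chr6:30617840-30626392), and of the 38 genes listed within 500 kb of it, 14 (36.8%) were also at 0 in every library, beside 21.0% of all genes listed. Only 6 of these 38 genes were tested, so the listed 0 of MRPS18B is given as the file's value and not as absence of its RNA. MRPS24 was listed with 2 to 13 counts per library, 72 in all, and was not tested. The annotation also holds a readthrough gene, URGCP-MRPS24, that covers MRPS24 and was listed at 0 counts in every library.

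MRPS36 bears a ribosomal symbol but is known as a component of the 2-oxoglutarate dehydrogenase complex. It was the least abundant small-subunit member tested, at 9.75, 10.5, 7.94, 9.21 and 8.38 CPM in ROBO1pos and 7.65, 9.56, 7.99, 7.405 and 7.64 CPM in ROBO1neg. ROBO1neg replicate 2 stood above the other ROBO1neg libraries and inside the ROBO1pos range. The log2 fold change of 0.19 (SE 0.10) did not pass the test (edgeR adjusted p = 0.0957), while without that library it was 0.25 and passed (edgeR adjusted p = 0.0271).

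Summed over members, the large subunit came to 3177 ± 127 CPM in ROBO1pos against 2721 ± 100.4 CPM in ROBO1neg, with no overlap between libraries. The small subunit summed to 1680 ± 75.9 CPM and 1611 ± 48.8 CPM, with overlap. Subunits were taken by symbol here, so the small sum includes MRPS30, MRPS18A and MRPS36. The ratio of the large to the small sum was 1.92, 1.903, 1.89, 1.87 and 1.87 in the 5 ROBO1pos libraries and 1.68, 1.71, 1.69, 1.69 and 1.67 in the 5 ROBO1neg libraries. All ROBO1pos ratios were thus above all ROBO1neg ratios. This difference rested on MRPS6 and MRPS22. Without them, a choice made after seeing the data, the small subunit summed to 1564 ± 67.7 CPM in ROBO1pos and 1336 ± 37.7 CPM in ROBO1neg. The ratio was then 2.03 ± 0.023 and 2.04 ± 0.027, and the groups overlapped.

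**Figure D3:**
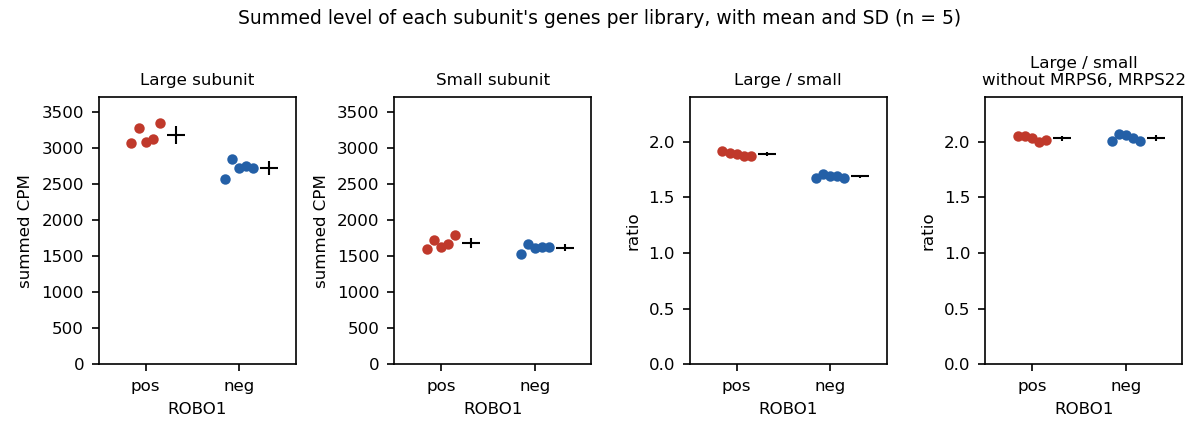
Summed CPM of the large- and small-subunit members and the ratio of the sums in each library, with mean and SD beside the points. The ratio is near 1.89 in ROBO1pos and 1.69 in ROBO1neg, and near 2.03 and 2.04 once MRPS6 and MRPS22 are left out.

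By place in the ribosome, no group of members went one way only. These groups were drawn up from general knowledge after the values were known, and their counts are descriptions. Of the 30 large-subunit members with a bacterial counterpart, 20 were higher in ROBO1pos and 5 in ROBO1neg (median log2 fold change 0.25). Of the 18 without one, 10 were higher in ROBO1pos and 5 in ROBO1neg (median 0.24). The stalk and its base divided evenly, with MRPL1 (0.56) and MRPL11 (0.23) higher in ROBO1pos and MRPL10 (-0.16) and MRPL12 (-0.29) higher in ROBO1neg on the log2 scale, although MRPL10 lost its call with upper-quartile scaling. Of 8 proteins at the tunnel exit, MRPL39 (0.59), MRPL44 (0.39) and MRPL45 (0.35) were higher in ROBO1pos and MRPL17 (-0.082) and MRPL47 (-0.61) higher in ROBO1neg, also as log2 fold changes. The call of MRPL17 was lost in several alternatives, among them a replicate block, upper-quartile scaling and library size alone. In the central protuberance MRPL48, MRPL46 and MRPL40 were higher in ROBO1pos, MRPL27 and MRPL38 higher in ROBO1neg, and MRPL18 did not pass the test. In the small subunit, 8 of 15 tested members with a bacterial counterpart were higher in ROBO1pos and 2 in ROBO1neg (median 0.12), as were 6 and 3 of 9 without one (median 0.39). Of the 7 tested proteins of the head, 3 were higher in ROBO1pos (MRPS9, MRPS33 and MRPS35) and 2 in ROBO1neg (MRPS7 and MRPS31).

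The direction of calls differed between chromosomes, among members and among all genes tested. All 8 members on chromosome 2 were higher in ROBO1pos, where 46.3% of all tested genes were, as were all 3 on each of chromosomes 7, 8 and 12, where 42.9%, 43.6% and 40.7% were. On chromosome 17, 6 of 7 members were higher in ROBO1neg (MRPL10, MRPL12, MRPL27, MRPL38, MRPS7 and MRPS23), beside 69.7% of all tested genes there, and MRPL45 alone was higher in ROBO1pos. Both members on chromosome 13, MRPL57 and MRPS31, were higher in ROBO1neg, beside 70.2% of its tested genes. Among the other chromosomes, 3, 11, 19 and 21 had members called in both directions. Chromosome 3 had 1 of 4 members higher in ROBO1pos and 2 in ROBO1neg (18.5% and 68.5% of its tested genes), chromosome 11 had 4 and 1 of 7 (41.3% and 40.3%) and chromosome 19 had 3 and 1 of 4 (53.6% and 31.8%). On chromosome 1, 5 of 8 were higher in ROBO1pos and 3 did not pass (49.3% of its tested genes were higher in ROBO1pos). Each member was set beside its neighbours, up to 20 tested genes on each side, by their median log2 fold change. Where fewer tested genes lay on one side, fewer were used, and MRPL41 had 27 neighbours in all, MRPL39 32, MRPL28 33 and MRPL57 34. Over the 75 members this neighbours' median correlated with the member's own log2 fold change (Pearson r = 0.66, Spearman rho = 0.70). Over 14607 genes with a position the Pearson r was 0.23. These sets are unlike, because log2 fold changes ran from -1.32 to 1.11 among members and from -9.25 to 8.71 over all genes tested. The difference between the Pearson values was not tested. Members that lie close together share neighbours, and all values come from the same 10 libraries, so the correlation is a description. Signs were the same for 63 of 75 members, and the share over all genes is not given here. Of the 45 members with a neighbours' median above 0, 38 were higher in ROBO1pos and 2 in ROBO1neg. Of the 30 with one below 0, 8 were higher in ROBO1pos and 13 in ROBO1neg. The same shares over all genes tested are not given here either. These counts therefore cannot tell if the likeness to neighbours is particular to the members. What sets the neighbours' values was not tested.

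**Figure D4:**
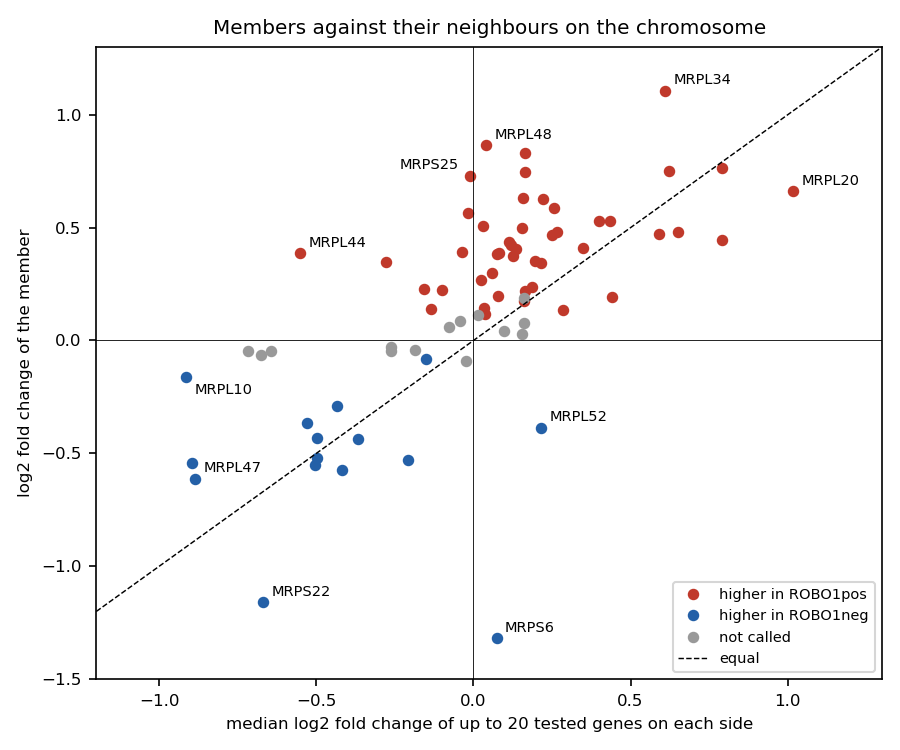
Log2 fold change of each of the 75 tested members (vertical axis) against the median of up to 20 tested genes on each side (horizontal axis), with the line of equal values dashed. Most members lie in the quadrants of equal sign, and MRPS6 lies far under the line, at -1.32 with neighbours at 0.073.

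With the neighbours' median removed in the fit, 43 members were higher in ROBO1pos and 10 in ROBO1neg. Beside them, 5853 of the 14607 tested genes with a position were higher in ROBO1pos and 5926 in ROBO1neg. Set against the main fit, 35 members kept their call, 16 lost it, 10 turned and 8 gained one. Of the 46 first higher in ROBO1pos, 31 remained so and 5 turned (MRPL20, MRPL28, MRPL36, MRPS11 and MRPS12). The other 10 no longer passed (MRPL14, MRPL19, MRPL33, MRPL46, MRPL53, MRPL55, MRPS5, MRPS16, MRPS18A and MRPS28). Of the 15 first higher in ROBO1neg, only MRPL52, MRPS6, MRPS22 and MRPS23 remained so. MRPL10, MRPL12, MRPL47, MRPL54 and MRPS7 turned, and MRPL17, MRPL27, MRPL38, MRPL41, MRPL57 and MRPS31 no longer passed. Among the 14 not called, MRPL3, MRPL22, MRPL24, MRPL49, MRPL50, MRPS2 and MRPS14 became higher in ROBO1pos and MRPL43 higher in ROBO1neg. MRPS6 kept its difference, at -1.39 beside neighbours at 0.073, while MRPS22 went from -1.16 to -0.49 beside neighbours at -0.67, all on the log2 scale. MRPL48 (0.86 to 0.82) and MRPS25 (0.73 to 0.74) hardly moved, and MRPL34 went from 1.11 to 0.50. MRPL44 had the largest value after removal, 0.94, beside neighbours at -0.55. MRPL3 went from -0.045 to 0.60 and MRPL47 from -0.61 to 0.27.

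Some members start back to back with another gene, within a stretch that can serve as promoter for both. For the 6 pairs with the nearest starts, the partner's log2 fold change is given beside the member's. MRPL46 and MRPS11, 34 bases apart, are members of both subunits and were both higher in ROBO1pos (0.77 and 0.45). MRPL36 (0.48) and NDUFS6 (0.77), 34 bases apart, were both higher in ROBO1pos, and MRPL47 (-0.61) and NDUFB5 (-0.93), 36 bases apart, both higher in ROBO1neg. NDUFS6 and NDUFB5 encode subunits of respiratory complex I. MRPL27 (-0.44) and EME1 (-0.35), a DNA repair nuclease subunit 6 bases away, were both higher in ROBO1neg. In the remaining pairs only the member passed the test. MRPL21 (0.27) lies 7 bases from IGHMBP2 (0.087), and MRPL30 (0.75) lies 21 bases from MITD1 (-0.095).

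Promoter sequences from RefSeq (GRCh38.p14, 250 bases before to 50 after the most upstream start) were found for 69 of the 77 members. They were searched on both strands for the core motifs of 3 factors known to act on nuclear genes of mitochondria. The motifs were CCGGAAG for ETS factors such as GABPA, AANATGGCG for YY1 and CGCATGCG for NRF1, and none of these strings contains another. The ETS core was in 28 member promoters (40.6%), beside 10.6% of the 27305 promoters of all genes. The YY1 core was in 18 (26.1%), beside 3.34%, and the NRF1 core in 3 (4.35%), beside 2.20%. At least 1 of them was in 43 member promoters (62.3%), beside 14.8% of all. By call, the ETS core was in 15 of 40 promoters of members higher in ROBO1pos, 8 of 14 of those higher in ROBO1neg and 5 of 13 of those not called. The YY1 core was in 10, 2 and 4 of the same promoters. A match describes the letters only, and the promoters of all genes were not matched to the members in expression or base content. The windows reach 50 bases past the start, so a match can also lie in transcribed sequence. The promoters of 4 members with large differences are printed, MRPS22 as the one with the lower level in ROBO1pos and the others with the higher, with matches in capitals. They are MRPS22 (chr3:139343744-139344043, plus strand, 3 ETS matches), MRPL48 (chr11:73787624-73787923, plus strand, 1 ETS match), MRPL46 (chr15:88467339-88467638, minus strand, 1 YY1 match) and MRPS25 (chr3:15065266-15065565, minus strand, no match). MRPL34, with the largest difference toward ROBO1pos, had no match and is not printed, so the printed promoters do not stand for all such members.
MRPS22: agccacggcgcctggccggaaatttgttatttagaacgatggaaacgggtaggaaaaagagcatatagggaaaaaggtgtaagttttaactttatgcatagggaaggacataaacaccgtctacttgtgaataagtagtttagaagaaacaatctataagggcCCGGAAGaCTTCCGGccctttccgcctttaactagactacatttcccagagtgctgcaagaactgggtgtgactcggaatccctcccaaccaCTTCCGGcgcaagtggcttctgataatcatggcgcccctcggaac
MRPL48: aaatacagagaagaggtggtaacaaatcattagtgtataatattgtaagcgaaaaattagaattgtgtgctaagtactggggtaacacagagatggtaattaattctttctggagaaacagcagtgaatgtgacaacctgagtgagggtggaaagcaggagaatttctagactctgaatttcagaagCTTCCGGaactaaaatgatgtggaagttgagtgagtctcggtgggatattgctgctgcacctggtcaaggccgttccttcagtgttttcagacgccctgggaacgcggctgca
MRPL46: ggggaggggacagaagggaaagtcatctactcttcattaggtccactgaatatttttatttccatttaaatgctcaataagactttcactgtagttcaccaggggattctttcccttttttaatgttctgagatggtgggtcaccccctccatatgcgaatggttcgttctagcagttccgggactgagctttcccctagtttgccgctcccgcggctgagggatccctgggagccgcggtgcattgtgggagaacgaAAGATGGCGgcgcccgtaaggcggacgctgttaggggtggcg
MRPS25: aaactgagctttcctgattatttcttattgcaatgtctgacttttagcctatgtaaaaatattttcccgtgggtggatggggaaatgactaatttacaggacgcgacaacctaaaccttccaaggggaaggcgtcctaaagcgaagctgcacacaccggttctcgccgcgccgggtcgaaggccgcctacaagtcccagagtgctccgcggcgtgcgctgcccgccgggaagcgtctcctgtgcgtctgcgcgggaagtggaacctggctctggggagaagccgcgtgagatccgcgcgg

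The regulators themselves were read from a list of 10 genes, of which 5 were higher in ROBO1pos and 2 in ROBO1neg (median log2 fold change 0.085). MYC, a transcription factor that promotes growth and ribosome production, stood at 563 ± 65.8 against 253 ± 24.6 CPM (log2 fold change 1.16). ESRRA, a nuclear receptor that activates mitochondrial genes, stood at 117 ± 6.20 against 54.6 ± 4.25 CPM (1.09). PPARGC1A, a coactivator of mitochondrial biogenesis, was near the lower limit at 1.14 ± 0.344 against 2.24 ± 0.712 CPM (-0.98), and YY1 stood at 134 ± 9.06 against 154 ± 6.03 CPM (-0.20), both higher in ROBO1neg. GABPA and NRF1, named after their values were seen because their motifs were searched, had log2 fold changes of 0.24 (edgeR adjusted p = 1.54e-04) and -0.080 (edgeR adjusted p = 0.242).

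Genes that work with the mitochondrial ribosome were read in the same fit from lists of known function. Of 6 mitochondrial ribosomal proteins with other symbols, 4 were higher in ROBO1pos and 1 in ROBO1neg (median 0.27). PTCD3, a small-subunit protein, stood at 195 ± 4.03 against 121 ± 2.86 CPM (log2 fold change 0.68) and GADD45GIP1, a large-subunit protein, at 53.4 ± 3.58 against 35.8 ± 3.59 CPM (0.58). The exception was ICT1, a peptidyl-tRNA hydrolase built into the large subunit, at 29.005 ± 1.95 against 40.8 ± 2.70 CPM (-0.49). Of 30 tested assembly factors, 18 were higher in ROBO1pos and 7 in ROBO1neg (median 0.21). RBFA, which binds the small subunit as it matures, stood at 27.2 ± 0.902 against 9.92 ± 0.706 CPM (1.46) and MPV17L2 at 21.2 ± 2.78 against 11.3 ± 0.682 CPM (0.91). SPG7, a subunit of the protease that matures MRPL32, had -0.57 and MRM1, a ribosomal RNA methyltransferase, -0.48. With the neighbours' median removed, 1 of the 6 proteins with other symbols was higher in ROBO1pos and 1 in ROBO1neg (median 0.016). Of the assembly factors, 16 were then higher in ROBO1pos and 7 in ROBO1neg (median 0.17), with RBFA at 0.28 and MPV17L2 at 0.41.

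Of 18 translation factors, 9 were higher in ROBO1pos and 4 in ROBO1neg (median 0.17). MTFMT, which formylates the initiator tRNA, stood at 35.3 ± 1.33 against 18.1 ± 0.789 CPM (log2 fold change 0.96), and LRPPRC, which stabilises mitochondrial messenger RNA, at 487 ± 23.1 against 304 ± 11.9 CPM (0.68). GFM1, the elongation factor that moves the ribosome along, went the other way at 80.2 ± 2.57 against 171 ± 6.56 CPM (-1.10), as did TACO1, an activator of COX1 translation (-0.74). Of 19 tested mitochondrial tRNA synthetases and related enzymes, 14 were higher in ROBO1pos and 3 in ROBO1neg (median 0.46), among them SARS2 (1.05) and WARS2 (0.75) against CARS2 (-0.43) and LARS2 (-0.33). Of 19 genes of mitochondrial DNA upkeep and transcription, 12 were higher in ROBO1pos and 5 in ROBO1neg (median 0.29). TFB2M, a transcription factor inside mitochondria, had 0.92 and the helicase SUPV3L1 0.65, while FASTK had -0.83 and the elongation factor TEFM -0.61. With the neighbours' median removed, 9 translation factors were higher in ROBO1pos and 4 in ROBO1neg (median 0.12). For the synthetases the counts were 13 and 3 (median 0.32). For the last list they were 8 and 4 of 18 with a position (median 0.069), with TFB2M at -0.025 and SUPV3L1 at 0.60.

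Protein genes of the cytosolic ribosome had larger median log2 fold changes than the members, a difference between lists that was not tested. Of its large-subunit protein genes, 43 of 47 tested were higher in ROBO1pos and 1 in ROBO1neg (median log2 fold change 0.75), and of its small-subunit genes 28 of 30 and 2 (median 0.97). RPL13A (2.01), RPL22 (1.77), RPS28 (1.52) and RPS12 (1.46) had the largest values, and RPL21 (-0.13), RPS15 (-0.28) and RPS26 (-0.36) were higher in ROBO1neg. Together these genes summed to 73066 ± 2895 CPM in ROBO1pos and 38401 ± 1354 CPM in ROBO1neg. The members' sum per 1000 CPM of cytosolic ribosomal protein genes was 63.3, 73.0, 64.9, 64.0 and 67.7 CPM in the 5 ROBO1pos libraries. In the 5 ROBO1neg libraries it was 111.6, 111.5, 114, 113 and 114 CPM. The members' sum was thus higher in ROBO1pos on the CPM scale and lower in ROBO1pos relative to the cytosolic ribosomal genes. Cytosolic ribosomal genes have many processed copies in the genome, and reads shared with these copies make their levels less certain.

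**Figure D5:**
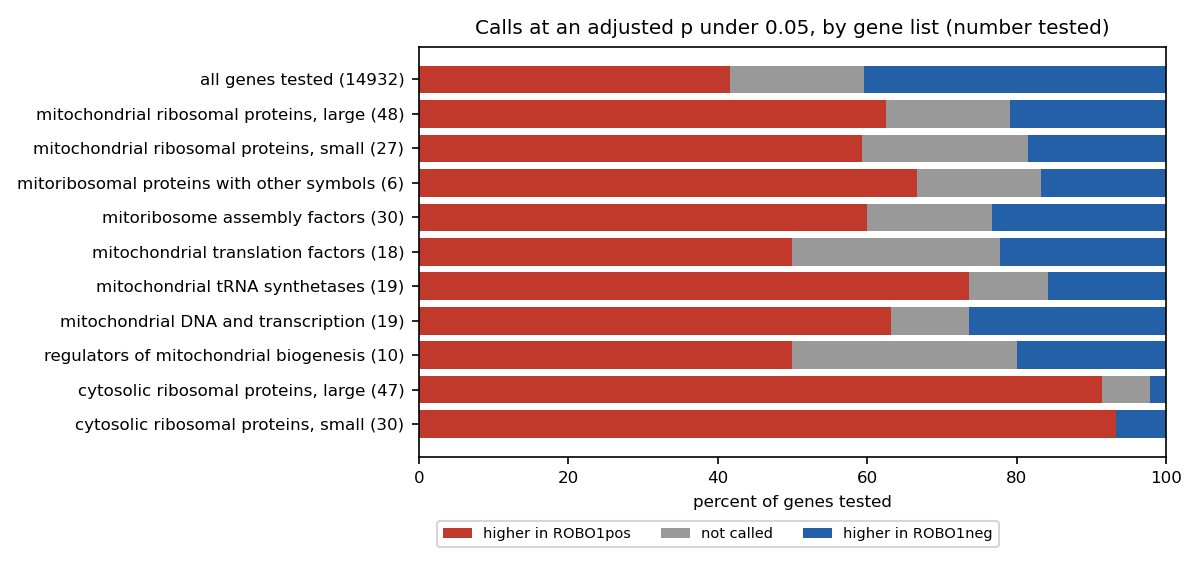
Percent of the tested genes of each list that were higher in ROBO1pos (red), not called (grey) or higher in ROBO1neg (blue), with the number tested in brackets. The bars of both mitochondrial subunits hold more red than the bar of all genes tested (62.5% and 59.3% beside 41.6%), and the bars of the cytosolic ribosomal proteins hold the most.

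Most calls of members were stable when single libraries were left out. Of the 61 called members, 57 kept their call without each library in turn. MRPL28 lost it without ROBO1pos replicate 2 or 5 or ROBO1neg replicate 1 (edgeR adjusted p between 0.0561 and 0.0675). MRPL14 lost it without ROBO1pos replicate 1, 2, 3 or 5 or ROBO1neg replicate 1, 3 or 5 (0.0583 to 0.138). MRPL17 lost it without ROBO1pos replicate 1, 3, 4 or 5 or ROBO1neg replicate 2, 3 or 4 (0.0565 to 0.0878). MRPS16, described with its values, was the other member to lose its call. MRPL18 was called without ROBO1neg replicate 2 (edgeR adjusted p = 0.0338) and with a replicate block, which MRPL14 and MRPL17 did not pass. In a test against a 1.5-fold difference, 10 of the 75 members passed, beside 6236 of all 14932 genes tested. They were MRPL34, MRPL48, MRPL42, MRPL46, MRPL4, MRPL30, MRPL20 and MRPS25, higher in ROBO1pos, and MRPS6 and MRPS22, higher in ROBO1neg.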

How the data were processed

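RNA-seq was analysed in 10 libraries, 5 ROBO1pos and 5 ROBO1neg. The authors deposited raw read counts per gene, without normalisation. The submitters' processing notes name bcl2fastq (listed as 0.11.7), FastQC, STAR 2.6.0c, SAMtools 1.9, DESeq2 1.24.0 and the build GRCh38. The counting tool, strand setting and annotation were not given in the sources used here. Entries without a gene entered neither library sizes nor tests (reads with no feature were 15.8% in ROBO1pos and 14.6% in ROBO1neg, ambiguous reads 0.860% and 0.833%).

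Counts of all genes were fitted with edgeR 4.0.16 in R 4.3.3 (filterByExpr defaults, TMM, quasi-likelihood test, group as the only term, Benjamini-Hochberg over 14932 genes, threshold 0.05). The biological coefficient of variation was 8.70%. Standard errors come from the coefficient and its F statistic. The procedure was also run on simulated counts with far fewer changed genes than these data, so that run lends the calls here no support. No 2 libraries of a group agreed within sampling noise. Gene positions and promoters come from RefSeq (GRCh38.p14), and strand, start and exon lengths from GENCODE (GRCh38). The neighbours' median entered the fit as an offset. The alternatives were RLE, upper-quartile and no scaling, other filters, DESeq2 1.42.0, limma-voom (limma 3.58.1), a test against a 1.5-fold difference, a replicate block, each library left out, and subunits by place in the ribosome.

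The members and lists were chosen with earlier results of these data known. Values per library are given, by rule, for the 4 called members at each end of the log2 fold changes in each subunit, the 2 with the highest mean CPM in each, and 12 members fixed by name. Members whose call changes with the neighbours, the 6 nearest divergent partners, and from each list the 2 called genes at either end are also named. Some list genes, GTPBP6, VARS2 and RPS18 among them, were not tested.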

Additional observations from a re-analysis of the deposited data

Results flagged for a closer look

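In the ROBO1neg group, replicate 2 stood at 9.56 CPM for MRPS36, while the other 4 libraries lay between 7.405 and 7.99 CPM. The gap, divided by the range of the group, was 0.730, above Dixon's critical value for 5 samples. It was the only one of 56 groups of 5 libraries so marked, and chance marks about 1 in 20. Without that library MRPS36 passed the test, with a log2 fold change of 0.25 (edgeR adjusted p = 0.0271).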

How the results depend on the processing

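Outside the 1.5-fold test and the removal of the neighbours' median, 56 of the 61 called members had the same call in every alternative, and no call turned. Upper-quartile scaling, which moved the median of all genes by 0.063, gave a large-subunit median log2 fold change of 0.31, MRPL18, MRPL49, MRPS18C and MRPS36 then passed the test, and MRPL10 and MRPL17 no longer did. Tested against 1.5-fold, 7 large-subunit members were higher in ROBO1pos and 0 in ROBO1neg, and 1 and 2 of the small subunit. Of all 14932 genes tested, 6236 passed that test. With the neighbours' median removed, 5 large-subunit members were higher in ROBO1neg, beside 5926 of the 14607 tested genes with a position. The log2 fold change then had the other sign for 23 of the 75 members. They included MRPL46 (-0.027), MRPL47 (0.27), MRPL54 (0.35), MRPL3 (0.60), MRPL12 (0.15) and MRPS12 (-0.25). This change of sign came by construction, because the neighbours' median had the member's sign and was larger. The difference of the large to small ratio went from 0.20 to -0.0048 without MRPS6 and MRPS22, a setting chosen after seeing the data. MRPS16 lost its call with RLE scaling (edgeR adjusted p = 0.0616), DESeq2 (DESeq2 adjusted p = 0.0603) and no filter beyond 1 count (edgeR adjusted p = 0.0860). Without each library in turn, the median ran from 0.21 to 0.27 in the large and from 0.18 to 0.24 in the small subunit. With a replicate block, MRPL14 and MRPL17 lost their calls and MRPL18 gained one, so that 30 large-subunit members were higher in ROBO1pos and 9 in ROBO1neg, and 16 and 5 of the small subunit. Deviations of libraries with the same number correlated at 0.062 to 0.169, under 0.1 for replicates 2 and 4. Each ROBO1pos library nevertheless correlated best with the ROBO1neg library of its own number. The labels do not say if the numbers mark pairs, and the main fit took none. MRPS24 had too few counts to be tested and MRPS18B had none.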
